A study of Mus musculus with 6 samples.

Results

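The Oas and Oasl genes encode sensors of double-stranded RNA that are switched on by interferon. Of the 22180 genes with a probe set of their own on the array, 9 are the members described here: Oas1b, Oas1c, Oas1e, Oas1f, Oas1g, Oas2, Oas3, Oasl1 and Oasl2. The relatives Oas1d and Oas1h also had such a probe set, are not among the 9, and are given further on. A member was read from the probe set annotated with its symbol alone, and each had 1 such probe set. The 6 samples were mouse cells, 3 of spleen and 3 of tumor and 1 array each, that a flow sorter had gated as CD11b+, CD11c- and strongly Ly6C+, the phenotype of inflammatory monocytes. All mice of both groups had received Th9 cells, helper T cells that make interleukin 9, and tissue was taken 10 days later, so tumor and spleen are compared within treated mice and there is no untreated group. The sources used here do not give the mouse strain, genotype, age or kind of tumor. They also do not say whether samples of a group stem from different animals, so the p-values rest on the spread among samples, which may be technical.

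An OAS protein that meets double-stranded RNA joins ATP into short 2′-5′-linked chains of adenylate, called 2-5A. These chains act as a second messenger of the antiviral response. The genes carry response elements for the interferon-activated factor ISGF3 and for interferon regulatory factors (IRFs), and monocytes are among the cells that raise them strongly after interferon. The Oasl proteins share the OAS fold and add ubiquitin-like domains.

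The upstream sequence of 6 of the 9 members was in the RefSeq table of mouse assembly GRCm38.p6, and Oas1b, Oas1e and Oas2 were without an entry. The 4 stretches printed here are of members with a match to either motif given below in the 250 bases before the RefSeq start. Oas1f, which also had a match, and Oasl2, which had none, are not printed. The stretches are given 5′ to 3′ on the gene's strand, and bases inside any annotated gene, also the gene itself, are left out. The last base printed stands 98 bases before the RefSeq start for Oasl1, 26 for Oas3 and 27 for Oas1c. The bases after it lie in the annotated span of the gene itself, so part of these windows is annotated as gene. Matches were counted over all 250 bases. Capitals mark matches, on either strand, to GAAA-NN-GAAA (any 2 bases between the GAAA repeats), the core of the interferon-stimulated response element, or to AANNGAAA, the IRF core, which lies within every match of the longer one. The stretch of Oasl1 is chr5:114922990-114923142 on the plus strand, that of Oas1g chr5:120887614-120887863 on the minus strand, that of Oas3 chr5:120777685-120777909 on the minus strand and that of Oas1c chr5:120812541-120812634 on the minus strand.
Oasl1: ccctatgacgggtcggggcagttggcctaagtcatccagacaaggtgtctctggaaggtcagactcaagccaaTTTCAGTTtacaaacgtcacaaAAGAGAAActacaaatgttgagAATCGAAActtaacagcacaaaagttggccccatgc
Oas1g: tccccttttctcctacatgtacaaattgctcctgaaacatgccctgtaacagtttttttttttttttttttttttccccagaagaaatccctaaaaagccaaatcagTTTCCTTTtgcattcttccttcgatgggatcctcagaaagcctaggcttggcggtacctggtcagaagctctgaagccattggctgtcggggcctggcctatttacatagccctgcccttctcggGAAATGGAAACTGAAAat
Oas3: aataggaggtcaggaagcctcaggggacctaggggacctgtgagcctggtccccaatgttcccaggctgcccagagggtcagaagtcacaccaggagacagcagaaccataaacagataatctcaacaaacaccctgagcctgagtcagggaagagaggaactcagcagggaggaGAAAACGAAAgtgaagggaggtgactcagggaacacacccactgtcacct
Oas1c: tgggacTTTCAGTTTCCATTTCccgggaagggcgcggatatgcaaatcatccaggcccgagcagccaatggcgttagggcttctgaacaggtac

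The response element core matched upstream of Oas3 (1 match), Oas1g (2 matches that overlap) and Oas1c (2 matches that overlap). Oasl1 held 3 matches to the IRF core alone, Oas1f held 1, and Oasl2 held none of either. Of all 32851 RefSeq windows of the same length, 2.98% held the response element core and 21.3% the IRF core. Among tested genes with a RefSeq window, the response element core matched in 3.13% of 14267, and in 10.9% of the 823 that rose in tumor by the test given further on. The 2 matches of Oas1c lie between Oas1c and Oas1b, ending 7 bases before the annotated edge of Oas1b, while those of Oas1g end 3 bases before its own start. The interferon-gamma-activated site, TTCNNNGAA, matched upstream of 0 of the 6 members against 7.02% of all windows. A match describes letters in this window and shows no binding.

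**Figure D1:**
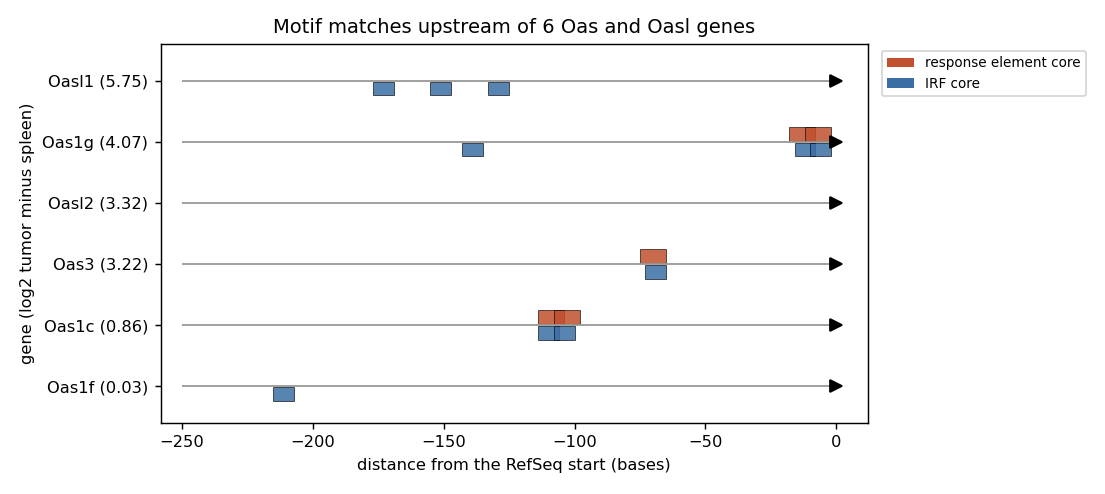
Positions of motif matches in the 250 bases before the RefSeq start of 6 Oas and Oasl genes (x axis, bases; arrowhead, start), with each gene's log2 change, tumor minus spleen, in brackets. Red boxes are the response element core and blue boxes the IRF core. Red boxes stand at Oas1g, Oas3 and Oas1c, Oasl1 has blue boxes only, and Oasl2 has no box.

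Oasl1, Oas1g, Oas1b, Oas2, Oasl2 and Oas3 rose on the tumor arrays, by 9.35-fold to 53.9-fold, while Oas1c, Oas1e and Oas1f did not pass the test. Levels are log2(intensity + 1), given per array or as mean ± SD (n = 3), changes are tumor minus spleen on that scale ± SE, and folds are powers of 2 of these changes, which understates changes of dim genes. A gene is called, or said to rise or fall, at an adjusted p under 0.05 by limma, fitted over 18458 genes with Benjamini-Hochberg adjustment. All 9 members were tested, and 6 of 9 were called higher and 0 lower, against 5.73% of all tested genes called higher and 4.85% lower. All 6 rose at least 8-fold, as did 0.52% of all tested genes, and in all 6 the tumor values lay above every spleen value, which held for 9.81% of all tested genes. Each of the 6 lay above its array's 25th percentile, the level set for testing, on all 3 spleen arrays as well as on all 3 tumor arrays. The median change of the 9 was 3.32, beside -0.05 over all tested genes.

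**Figure D2:**
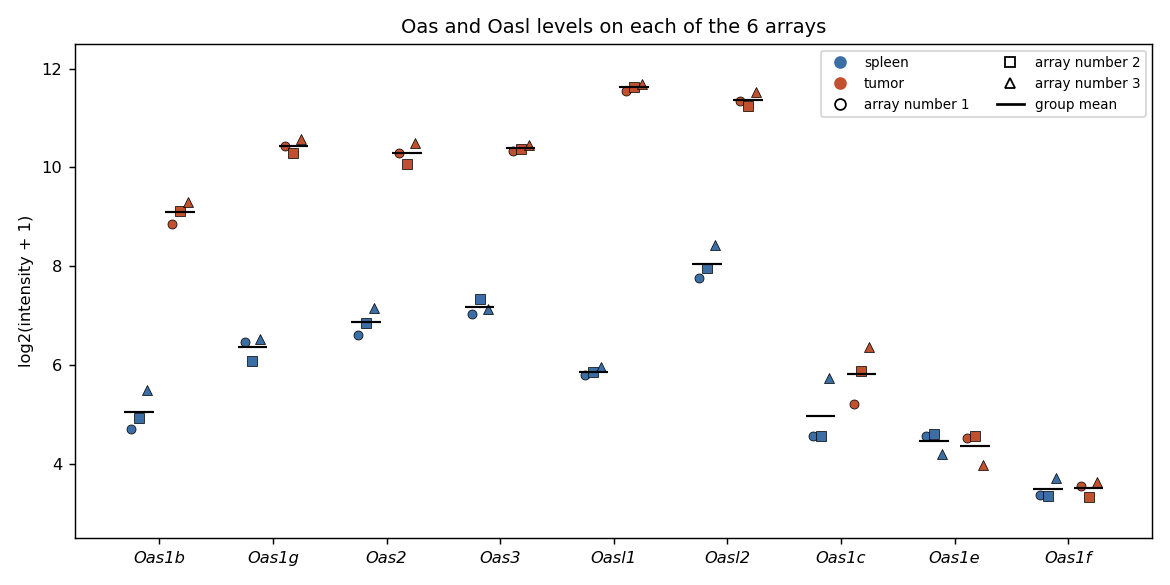
Level of each member on each array, as log2(intensity + 1) on the y axis (blue, spleen; red, tumor; circle, square and triangle, arrays numbered 1, 2 and 3; bar, group mean). The red points lie above the blue ones with a gap for Oas1b, Oas1g, Oas2, Oas3, Oasl1 and Oasl2, and the groups overlap for Oas1c, Oas1e and Oas1f. Heights of different genes come from different probes and are not to be compared.

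Oasl1, a member without synthetase activity that is known to bind the mRNA of Irf7 and hold back its translation, changed most. Its level was 5.79, 5.85 and 5.96 on spleen arrays 1 to 3 and 11.54, 11.62 and 11.69 on tumor arrays 1 to 3. The lowest tumor value stood 5.58 above the highest spleen value, and neither group spread by more than an SD of 0.09. The change was 5.75 ± 0.14 (95% interval 5.43 to 6.07, adjusted p = 7.8e-07, limma). As mean intensity, this was 57.5 in spleen and 3147 in tumor. Oasl1 ranked 5 by size of rise and 1 by p among the 18458 tested genes. Irf7 itself, an IRF that amplifies interferon production, changed by 4.42 ± 0.16 in the same cells.

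Oasl2, its neighbour and near relative, which keeps synthetase activity, had levels of 7.76, 7.96 and 8.42 in spleen and 11.35, 11.24 and 11.52 in tumor. The groups did not overlap, and the third spleen array was the highest of its group. The change was 3.32 ± 0.20 (10.0-fold, adjusted p = 2.0e-05, limma). Within an array the change of Oasl1 exceeded that of Oasl2 by 2.43 ± 0.16, and the log ratio of the pair did not overlap between groups (exact permutation test, two-sided, p = 0.1, the smallest that 3 against 3 arrays can give).

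Among the Oas1 genes, which encode the single-unit synthetases that favour short double-stranded RNA, Oas1g and Oas1b rose by like amounts. Oas1g, an active synthetase, had levels of 6.46, 6.08 and 6.53 in spleen and 10.43, 10.29 and 10.58 in tumor. The lowest tumor value stood 3.76 above the highest spleen value, and the change was 4.07 ± 0.17 (16.9-fold, adjusted p = 3.7e-06, limma). Oas1b is the gene tied to flavivirus resistance in mice, is inactive as a synthetase, and is listed by RefSeq in the reference strain C57BL/6J as a transcribed pseudogene. Its levels were 4.70, 4.93 and 5.49 in spleen and 8.86, 9.11 and 9.30 in tumor, the array numbered 3 being the highest of each group. It changed by 4.05 ± 0.23 (16.6-fold, adjusted p = 1.4e-05, limma). The difference between the changes of Oas1g and Oas1b was 0.03 ± 0.25, and their log ratio overlapped between groups (exact p = 0.9). Probe sets of such close copies can read each other's transcripts, so the values of Oas1b, Oas1c, Oas1e, Oas1f and Oas1g are uncertain to that extent.

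Oas2 and Oas3 encode the larger synthetases, built from repeated OAS units, of which Oas3 senses long double-stranded RNA. Oas2 had levels of 6.61, 6.86 and 7.15 in spleen and 10.29, 10.08 and 10.50 in tumor, a change of 3.42 ± 0.19 (10.7-fold, adjusted p = 1.4e-05, limma). Oas3 had levels of 7.03, 7.33 and 7.14 in spleen and 10.34, 10.38 and 10.46 in tumor, a change of 3.22 ± 0.15 (9.35-fold, adjusted p = 4.9e-06, limma). Both genes were high on all tumor arrays and low on all spleen arrays, with gaps of 2.93 and 3.01 between the groups. The tumor arrays lay closest together for Oas3, with an SD of 0.06.

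**Figure D3:**
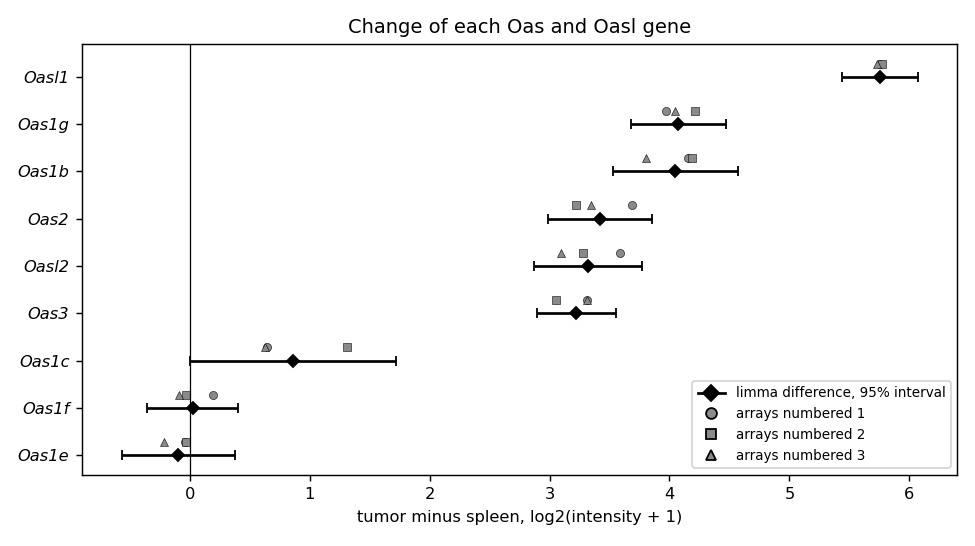
Change of each member, tumor minus spleen on log2(intensity + 1) (x axis). Diamonds and bars are the limma difference and its 95% interval, and small grey symbols are the differences between arrays of equal number. Oasl1 stands at 5.75, 5 genes lie between 3.22 and 4.07, the interval of Oas1c reaches 0, and Oas1e and Oas1f lie about 0.

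The 6 risers formed 3 steps by size of change, a grouping made after the values were seen. Oasl1 came first, Oas1g (4.07) and Oas1b (4.05) followed, and Oas2 (3.42), Oasl2 (3.32) and Oas3 (3.22) made the last step. Over the 15 pairs among these 6 genes, the within-array log ratio separated the tumor from the spleen arrays in 11. Each of these had the smallest exact p of 0.1 (exact permutation test, 0.136 after Benjamini-Hochberg over the 15 pairs). They were the pairs from different steps, but the steps were drawn from the same changes, so this adds no support for the steps. How often pairs of other genes separate was not computed. Within steps the ratios overlapped, with differences of 0.10 ± 0.07 for Oas2 and Oasl2, 0.19 ± 0.18 for Oas2 and Oas3, and 0.10 ± 0.21 for Oasl2 and Oas3. With 3 arrays a group no pair could pass a threshold of 0.05, and a ratio that overlaps does not show that the genes change alike.

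Oas1c, Oas1e and Oas1f are further rodent copies of Oas1. Oas1c had levels of 4.57, 4.57 and 5.73 in spleen and 5.22, 5.88 and 6.36 in tumor. The third spleen array lay above the first tumor array, so the groups overlapped, and the change was 0.86 ± 0.38 (95% interval -0.00 to 1.72, adjusted p = 0.232, limma). With the replicate number as a block the change of Oas1c was called (0.86 ± 0.15, adjusted p = 0.00407, limma), and the differences within numbers 1, 2 and 3 were 0.64, 1.31 and 0.63. It was also called without the third spleen array (1.25, adjusted p = 0.0425) and with array weights (adjusted p = 0.00359), and over all 18 alternatives its adjusted p ran from 0.00359 to 0.517. With the block 7 of 9 members were higher, against 11.7% of all tested genes.

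Oas1e had levels of 4.57, 4.60 and 4.19 in spleen and 4.53, 4.57 and 3.98 in tumor, with the array numbered 3 lowest in both groups. Its change was -0.09 ± 0.21 (95% interval -0.57 to 0.38, adjusted p = 0.916, limma). Oas1f lay at 3.37, 3.36 and 3.72 in spleen and 3.56, 3.33 and 3.63 in tumor. It passed the level for testing on 1 spleen and 2 tumor arrays, the smallest number allowed, and stood at 0.03 ± 0.17 (95% interval -0.36 to 0.41, adjusted p = 0.98). Oas1f thus lay at the edge of what was tested. Oas1e was above that level on all 3 arrays of each group but was dim too, with a mean intensity of 21.1 in spleen and 19.9 in tumor. On the arrays numbered 3 it lay below the array medians of log2 intensity (4.68 in spleen and 4.70 in tumor). A missing call of either gene may thus reflect weak signal, which was not tested. Oas1d and Oas1h, relatives outside the 9 that were named after their values were seen, lay below the level for testing, at 3.34 ± 0.10 and 2.98 ± 0.06 in spleen and 3.40 ± 0.39 and 2.90 ± 0.20 in tumor.

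The arrays numbered 3 stood apart in both groups. Their median over all tested genes lay 0.19 above the group mean of each gene, in spleen and in tumor alike, and the called members followed, by 0.23 and 0.15. Spleen array 3 was the highest of its group for 7 of 9 members, and tumor array 3 for 8 of 9. Without them, on the arrays numbered 1 and 2 only, the same 6 members were called, with changes of 5.76 for Oasl1, 4.17 for Oas1b, 4.09 for Oas1g, 3.45 for Oas2, 3.43 for Oasl2 and 3.18 for Oas3 (adjusted p from 0.00242 to 0.0039, limma), against 7.51% of all tested genes higher. In the pair numbered 3 the differences of these genes were 5.73, 3.81, 4.05, 3.35, 3.10 and 3.31.

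The genes nearest to each riser in pattern were found by the Euclidean distance between mean-centred log2 values over the 6 arrays, with Oas and Oasl genes left out of the search. The values were not scaled, so the distance mostly restates the size of the change, and a near gene is mainly one that changed by a like amount. The nearest genes were Ifi205 (distance 0.40) and the activation antigen Cd69 (0.43) for Oasl1, and the immunity-related GTPase Irgm2 (0.25) and Apol9b (0.33) for Oas1b. For Oas1g they were Phf11 (0.17) and Med7 (0.18). The nucleotidase gene Nt5c3 came first outside the family both for Oas2 (0.10) and for Oasl2 (0.23), followed by Rnf213 (0.21) for Oas2 and Tnfsf15 (0.26) for Oasl2. The guanylate-binding protein gene Gbp9 (0.22) and Ch25h, the cholesterol 25-hydroxylase (0.25), were nearest to Oas3. Between members the smallest distance was that of Oas2 and Oasl2 (0.20), and the largest that of Oas3 and Oasl1 (3.10).

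RefSeq places 10 Oas genes side by side, with 0 other coding genes between them, and Oasl2 and Oasl1 as a pair elsewhere on the same chromosome. Within the large cluster the order is Oas2, Oas3, Oas1e, Oas1c, Oas1b, Oas1f, Oas1h, Oas1g, Oas1a and Oas1d, so genes that rose stand next to genes that did not pass the test. The 3 nearest tested genes on each side of both clusters, 12 in all, had 0 calls by limma, and 2 of them, Rasal1 and 1500011B03Rik, had an unadjusted p under 0.05. Beside the Oas cluster these were Dtx1 (-0.03), Rasal1 (-0.33), Cfap73 (-0.06), Rph3a (-0.16), the phosphatase gene Ptpn11 (0.09) and the ribosomal protein gene Rpl6 (0.06). Beside the Oasl pair they were 4930519G04Rik (-0.01), 2610524H06Rik (-0.39), 1500011B03Rik (-0.53), 2210016L21Rik (-0.24), the protease gene Sppl3 (-0.17) and the dehydrogenase gene Acads (-0.29). With the replicate block Rasal1, 1500011B03Rik and Acads were called lower (adjusted p = 0.0361, 0.00599 and 0.0466, limma), against 17.3% of all tested genes called lower in that fit.

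The route downstream of OAS was read from 3 genes that limit a 2-5A signal, of which 0 were called by limma and 0 had an unadjusted p under 0.05. Abce1, a ribosome recycling factor also known to dampen 2-5A signalling, stood at -0.47 ± 0.29 (adjusted p = 0.453, limma, and 0.0282 with the replicate block), and the phosphodiesterase genes Pde12 and Akap7 at -0.22 ± 0.24 and -0.21 ± 0.25. Other genes of double-stranded RNA sensing were called higher in 7 of 12 cases and lower in 1, with a median change of 2.26. They were the endosomal receptor Tlr3 (3.63 ± 0.18), the helicases Ifih1 (3.37 ± 0.16), Dhx58 (2.92 ± 0.16) and Ddx58 (2.92 ± 0.15), Zbp1 (3.77 ± 0.18), the kinase PKR, encoded by Eif2ak2 (2.76 ± 0.21), and the editing enzyme Adar (1.75 ± 0.18). Mavs, the adaptor of the helicases, fell by 0.95 ± 0.17 (adjusted p = 0.01, and 0.0564 without tumor array 1). With the block Stau1 (0.57, adjusted p = 0.00342) and Prkra (-0.46, adjusted p = 0.00736) were called too. Cgas, a DNA sensor whose enzyme shares the OAS fold, rose by 2.62 ± 0.32, and its partner Sting1 stood at -0.01 ± 0.18.

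Of 10 tested genes of interferon signalling and of IRFs, the activator list, 4 were called higher and 0 lower (median 0.50). Of all tested genes 5.73% were called higher and 4.85% lower. With the replicate block 6 of the 10 were called higher, against 11.7% of all tested genes. Irf7, Stat2 (2.69 ± 0.22) and Irf9 (1.52 ± 0.22), the last 2 being parts of ISGF3, and Irf1 (1.80 ± 0.15) rose. The receptor chains Ifnar1 (0.14 ± 0.19) and Ifnar2 (-0.01 ± 0.21), the kinase Jak1 (0.00 ± 0.16) and Irf3 (-0.18 ± 0.17) were not called, and Tyk2 (0.54 ± 0.18) and Irf8 (0.45 ± 0.20) were called with the block (adjusted p = 0.00365 and 0.00837, limma). Among other targets of type I interferon 27 of 27 tested genes were called higher, with a median of 2.69. The largest changes in this list were those of Mx2 (5.39 ± 0.14), Ifit1 (5.26 ± 0.18) and Cmpk2 (5.21 ± 0.20), all below that of Oasl1. Ifi205, which is not in the list, changed by more than Oasl1 (5.96 ± 0.17). The smallest changes in the list were those of Trim25 (1.18 ± 0.20), Tap1 (1.34 ± 0.15) and Bst2 (1.38 ± 0.20). All were below that of Oas3, the smallest among the members that rose. They were above those of the members not called, Oas1c (0.86), Oas1f (0.03) and Oas1e (-0.09). These lists describe the setting and share the same arrays as the members, and no difference between lists was tested.

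**Figure D4:**
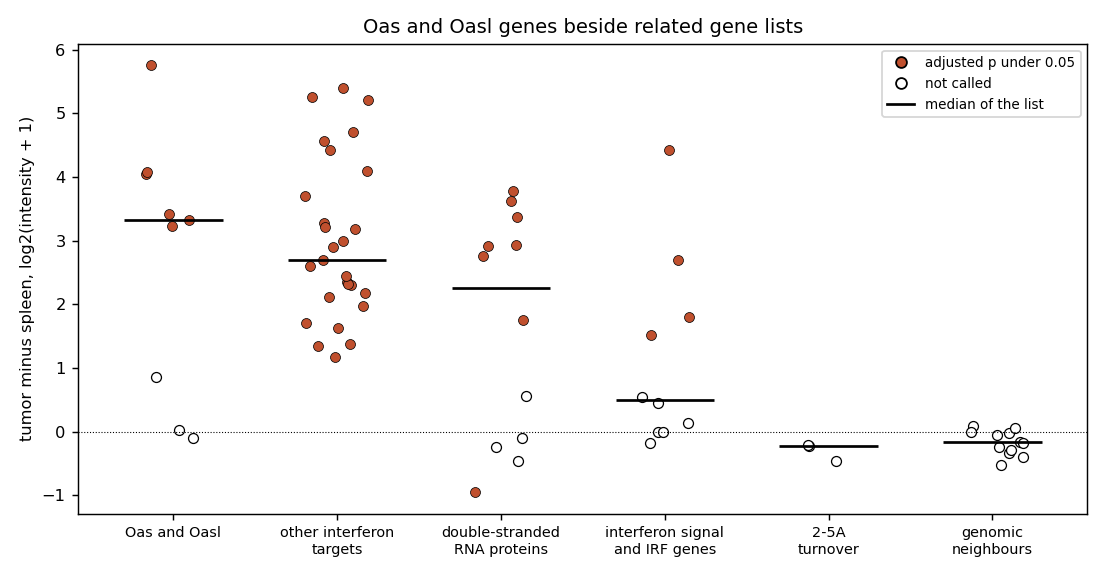
Change of each tested gene, tumor minus spleen on log2(intensity + 1) (y axis), by gene list (x axis). Red points are genes at an adjusted p under 0.05, open points the others, and bars the medians. The medians are 3.32 for the Oas and Oasl genes and 2.69 for other interferon targets, and the 12 genomic neighbours lie between -0.53 and 0.09.

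The sort was read from its genes. Itgam, which encodes CD11b, had levels of 10.04 ± 0.15 in spleen and 9.19 ± 0.22 in tumor, and Ly6c2 had 6.81 ± 0.58 and 8.29 ± 0.40. Itgax, which encodes the CD11c that the sort left out, was at 11.16 ± 0.12 in spleen and 10.31 ± 0.17 in tumor. The RNA of this excluded marker thus lay far above the array medians of log2 intensity (4.43 to 4.70) in both groups. In sorted bulk cells, a change in the mix of cells and a change of RNA per cell cannot be told apart. The summed intensity of 10 monocyte and macrophage genes was 21300 to 22033 in spleen and 19031 to 20487 in tumor. Of these genes 3 were called higher, Ly6c2, Cd14 and Vcan, and 3 lower, Itgam, Ccr2 and Csf1r. Itgam and Ly6c2, genes of the sort itself, thus differed between the groups. Summed intensities of marker lists were lower on the tumor arrays for conventional dendritic cells (7 genes, 3140 to 3461 in spleen and 2160 to 2364 in tumor), neutrophils (10 genes, 3170 to 3841 in spleen and 2397 to 2704 in tumor), T cells (9 genes, 325 to 374 and 203 to 265) and B cells (6 genes, 458 to 633 and 330.3 to 432). Within these lists the called genes were Itgax and Mmp8, Cd3g and Cd22, all lower, and Zbtb46, which rose by 0.89, while the neutrophil gene Ly6g stood at -0.05 and Camp at 0.22. The sums overlapped between groups for erythroid cells, melanocytes, fibroblasts, endothelium and epithelium, and the melanocyte gene Tyr lay below the level for testing. Under overlapping sums, the endothelial genes Kdr rose by 2.88 and Vwf fell by 1.37, and the epithelial gene Krt19 fell by 0.92. The sums were higher for NK cells (6 genes, 215 to 295 and 555 to 851) and plasmacytoid dendritic cells (7 genes, 1039 to 1561 and 2742 to 3381). Of the NK genes 1 was called higher, Klrk1, while the defining Ncr1 stood at 4.07 in spleen with a difference of -0.07. Of the plasmacytoid genes Bst2, itself induced by interferon, and Tcf4 were called higher and Spib lower, and the defining Siglech stood at 4.52 and 4.62. The part of these cells in the rise of the Oas and Oasl genes was not tested.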

How the data were processed

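Per the labels, RNA of sorted cells with an integrity number above 8.5 was run on Mouse Gene 2.0 ST arrays. The authors deposited 1 linear intensity per probe set and array, made with RMA per the submitters' processing notes; its version and settings, and the genome build, are not stated in the sources used here. Arrays numbered 1 and 2 share exact values in 1095 to 1688 tested genes per pair of arrays, and 0 with those numbered 3, and array medians of log2 intensity were 4.43 to 4.45 against 4.68 and 4.70, so the 6 arrays do not lie on 1 common distribution. Of 41345 probe sets, 23521 carry 1 gene symbol, 1814 several and 16010 are unnamed here. All 9 members matched RefSeq by gene identifier. Per gene the probe set of highest mean was used, as log2(intensity + 1), where the deposited values are linear. Genes above their array's 25th percentile on at least 3 arrays were tested with limma 3.58.1 in R 4.3.3 (group as the only term, two-sided). A check on simulated data drew each gene and array independently, so it does not cover shifts shared by the genes of an array. Deviations of equal replicate numbers correlated at 0.36, 0.44 and 0.71 across genes. Spleen 1 with tumor 2 (0.46) and spleen 2 with tumor 1 (0.35) did as well, so the values set number 3 apart and do not pair 1 with 1 or 2 with 2. A fit with the number as a block was run as an alternative; what a number stands for is not stated in the labels. The number of arrays limits precision.

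The members, gene lists, motifs and alternatives were chosen with earlier results of these data known. Named were all members, called genes of the double-stranded RNA and activator lists, the extremes of the other interferon targets, the nearest patterns and the genomic neighbours; uncalled genes of short lists are named as a choice made after their values were seen. Alternatives were other scalings, pseudocounts, filters, priors and weights, the block, arrays numbered 1 and 2 only, a stricter threshold, and each array left out. Some genes of the lists are not reported here.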

Additional observations from a re-analysis of the deposited data

How the results depend on the processing

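Oasl1, Oas1g, Oas1b, Oas2, Oasl2 and Oas3 stayed called higher in tumor under all 18 alternatives run and at an adjusted p under 0.01, with changes of 5.43 to 5.84, 3.85 to 4.26, 3.54 to 4.28, 3.26 to 3.56, 3.18 to 3.51 and 3.07 to 3.31 and adjusted p up to 0.0039 (limma). The alternatives refit the same 6 arrays and are not independent checks. Among them, the mean of the probe sets of a gene could not move the change of a member, since each had 1 probe set. How many of all tested genes stayed called under all 18 was not computed. The count of members called was 6 or 7, the seventh being Oas1c. Oas1e and Oas1f were called under none. Mavs at an adjusted p of 0.01 missed the stricter threshold. The counts over all tested genes moved far more, from 1952 (1057 higher, 895 lower) to 3506 (1921 lower) with quantile normalization, 3289 (1806 lower) with median centring, 3184 (1854 higher) with cyclic loess, 7102 (2867 higher, 4235 lower) with array weights, 5346 (2153 higher, 3193 lower) with the replicate block, 2936 (1549 lower) on the arrays numbered 1 and 2 only, and 961 (651 higher, 310 lower) at an adjusted p under 0.01. With 1 array left out they ran from 1011 to 1924, with 662 to 1240 higher and 293 to 1036 lower. Over the 18 alternatives, Tyk2 was called in 7, Stau1 in 6, Irf8 in 4 and Prkra in 3, so their calls did not come with the block alone. The replicate block changed no call of a named gene other than those given with it above. The cause of these moves was not tested. A level near the array's 25th percentile limits what can be said of Oas1f, and a dim signal what can be said of Oas1e.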
